A study of Mus musculus with 18 samples.

Results

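The livers were examined for 35 genes of fatty acid oxidation and of PPAR alpha control. In offspring of each maternal diet, most of those that could be tested had lower transcript levels at postnatal day 150 than at day 21. By the test used below, 15 of the 33 tested fell in all 3 diets. The ages also differed in how complete the labelled RNA was, and the 2 cannot be told apart. The genes were taken from a list of names and matched to the array by gene symbol, 1 probe set per gene, the one with the highest mean log2 signal. Of the 35 genes, 33 had a probe set that names them alone, and all 33 passed the filter on dim probe sets, which left 11018 genes of 18193 on the array. Cyp4a10, an omega-hydroxylase, and Acsl1, which activates fatty acids with coenzyme A, had no such probe set and are named only. By the place of their products, 17 of the 35 genes are mitochondrial, 7 peroxisomal and 11 belong to other or several places.

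Mitochondria take up long acyl chains through carnitine esters and shorten them in rounds of dehydrogenation, hydration, a further dehydrogenation and thiolysis, each of which releases acetyl-CoA that the liver burns or turns into ketone bodies. Peroxisomes run a parallel route for very long and branched chains with enzymes of their own, and thioesterases and carnitine acyltransferases release the products. PPAR alpha is a nuclear receptor that binds fatty acids and, paired with RXR, raises the transcription of genes of both routes, above all in the fasted liver.

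The mice were offspring of DUK, an outbred line crossed from several outbred and inbred stocks, and each array held liver RNA pooled from several animals. Dams ate isoenergetic diets with 40% (high protein, HP) or 20% (control) protein by weight, and the groups at day 150 and again at day 21 were HP pregnancy (40% in pregnancy, 20% in lactation), HP lactation (20% in pregnancy, 40% in lactation) and control (20% throughout), with 3 arrays in each of the 6 groups. The labels disagree on the number of animals in a pool and give no sex, hour of sampling or diet after weaning. A p-value therefore measures the spread between pools, and its unit is neither the animal nor the dam.

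A few facts of the arrays touch the results. Of 11 hepatocyte markers 9 were measured, all above the filter, and their summed signal per array ran from 254190 to 448284 at day 150 and from 215952 to 323877 at day 21. The summed signal of all 8 Kupffer cell markers ran from 14734 to 22367 at day 150 and from 9902 to 17671 at day 21. That of all 8 stellate cell markers ran from 15316 to 23989 at day 150 and from 22393 to 33183 at day 21, while 0 of 3 measured adipocyte markers passed the filter. The ratio of the 3' to the 5' control probe set of Gapdh, a measure of how complete the labelled RNA was, lay between 1.30 and 1.80 at day 150 and between 0.82 and 0.99 at day 21. Xist, which is made from the inactive X chromosome of female cells, read 11644 in HP lactation day 150 replicate 4 and 7343 in control day 21 replicate 2, and at most 93.0 in the other 16 arrays.

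Between the ages, the genes of both routes that passed the threshold all fell, while others did not pass. At day 150 against day 21, 20 of the 33 genes tested fell after HP pregnancy, 18 after HP lactation and 17 in control offspring, and 0 rose in any of the 3 (limma with Benjamini-Hochberg adjustment over all 11018 genes, adjusted p under 0.05). Over all genes tested, 11.5% fell after HP pregnancy, 11.6% after HP lactation and 8.08% in control, and the shares that rose were 12.1% after HP pregnancy, 14.1% after HP lactation and 9.7% in control. The median log2 change of the 33 genes was -0.58 after HP pregnancy, -0.46 after HP lactation and -0.57 in control, where that of all genes was between 0.02 and 0.03. All 3 arrays of day 150 lay below all 3 of day 21 in 22 of the 33 genes after HP pregnancy, 18 after HP lactation and 25 in control, as they did in 20.7% of all genes after HP pregnancy, 17.2% after HP lactation and 16.6% in control. The 3 comparisons share no array. In all 3 of them 15 of the 33 genes fell (45.5%), as did 544 of the 11018 genes (4.94%). The marker sums of Kupffer and stellate cells and the Gapdh ratio differed between the ages too, and the part of the cell markers in these changes was not tested. In the pooled tissue, fewer cells that carry a transcript and less of it in each cell cannot be told apart.

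**Figure D1:**
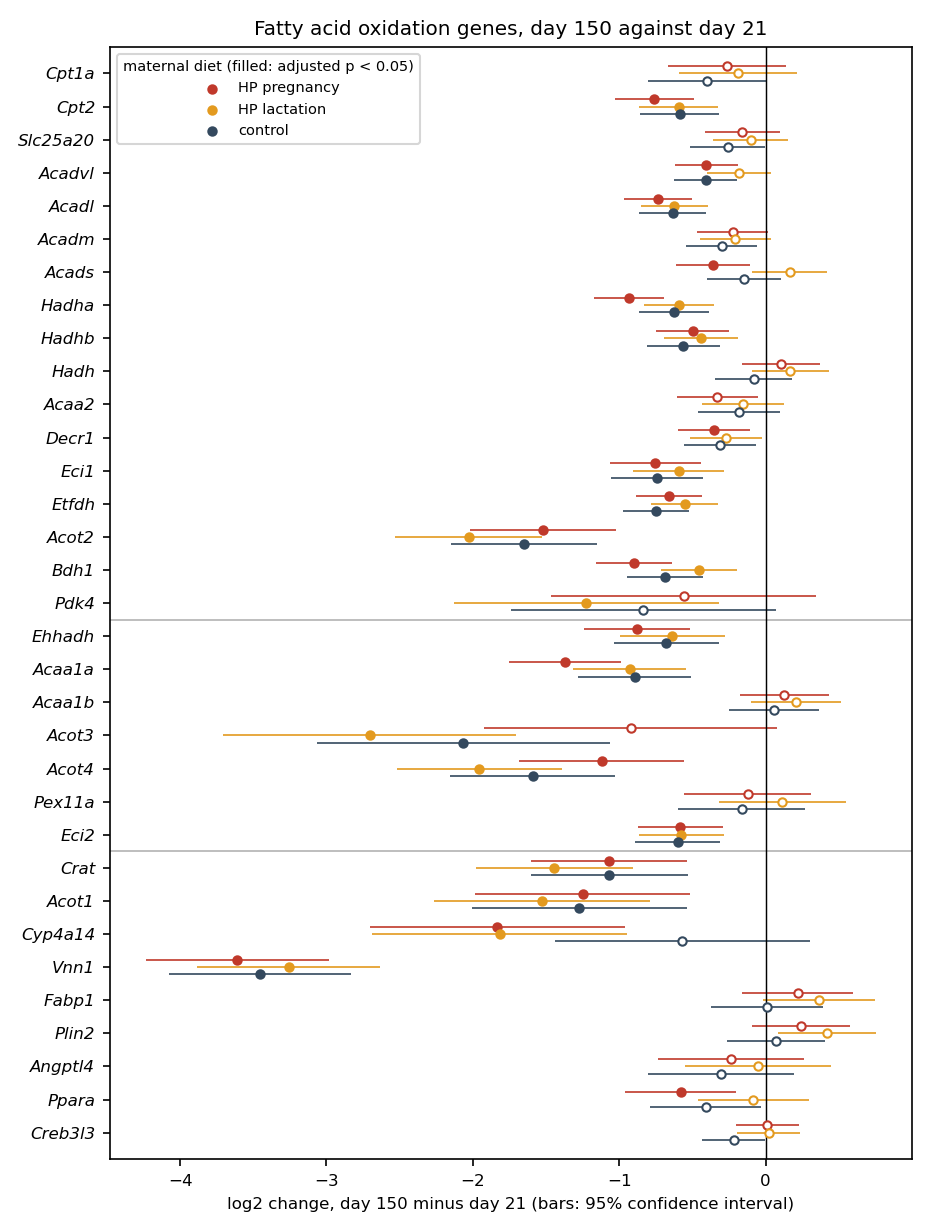
Log2 change in array signal from day 21 to day 150 (day 150 minus day 21) for the 33 genes, after HP pregnancy, HP lactation and control diet of the dam. Bars are 95% confidence intervals, filled points passed an adjusted p of 0.05 and all lie left of 0, grey lines part mitochondrial (top), peroxisomal (middle) and other genes (bottom), and Vnn1 lies farthest left at -3.61, -3.26 and -3.45.

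Entry into mitochondria begins with Cpt1a, the outer membrane carnitine palmitoyltransferase and the regulated step, which had log2 changes of -0.26 after HP pregnancy, -0.19 after HP lactation and -0.40 in control (SE 0.19), none past the threshold. Slc25a20, the carrier that trades acylcarnitine for carnitine, was at -0.16 after HP pregnancy, -0.10 after HP lactation and -0.26 in control and did not pass either. Cpt2, the inner membrane transferase that rebuilds the acyl-CoA, had signals of 4086, 3090.4 and 3388 after HP pregnancy, 3896, 3461 and 4075 after HP lactation and 4917, 4592 and 4114 in control at day 150. At day 21 they were 6009.7, 5945 and 5812 after HP pregnancy, 6087, 6140.0 and 5059 after HP lactation and 6131, 7938 and 6488 in control. All 9 arrays of day 150 lay below all 9 of day 21, and Cpt2 fell in each diet, by 0.76 after HP pregnancy, 0.59 after HP lactation and 0.59 in control on the log2 scale (SE 0.13, limma adjusted p between 0.000378 and 0.00409). A second, dimmer Cpt2 probe set did not show this, with 0.15 after HP pregnancy, -0.19 after HP lactation and 0.27 in control.

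Of the acyl-CoA dehydrogenases, which take the first pair of hydrogens, Acadl for long chains fell in all 3 diets. Its signals were 8044, 8623 and 9559.5 after HP pregnancy, 10663, 8793 and 10223 after HP lactation and 11685, 11676 and 11233 in control at day 150. At day 21 they were 13762, 14191 and 15674 after HP pregnancy, 15863, 16679 and 13269 after HP lactation and 17232, 19149.9 and 17427 in control. The 2 ages did not overlap in any diet, and the log2 change was -0.74 after HP pregnancy, -0.62 after HP lactation and -0.64 in control (SE 0.11, limma adjusted p at most 0.000643). Acadvl, for very long chains, fell after HP pregnancy (-0.41) and in control (-0.41), with -0.18 after HP lactation (adjusted p = 0.207), and its HP pregnancy call was lost when the arrays were scaled to equal 75th percentiles. Acads, for short chains, fell after HP pregnancy (-0.36, SE 0.12, adjusted p = 0.0369), a call lost without any 1 of 5 of the 6 arrays compared, and was at 0.16 after HP lactation. Acadm, for medium chains, was negative in each diet, between -0.30 and -0.21, and passed in none. Etfdh, the flavoprotein dehydrogenase that passes their electrons to ubiquinone, had signals of 9842, 9674 and 10026 after HP pregnancy, 9129, 8774 and 9805 after HP lactation and 9921, 9368 and 10251 in control at day 150. The day 21 signals of Etfdh were 17917, 14097 and 14965 after HP pregnancy, 12441, 15498 and 12883 after HP lactation and 15958, 17826 and 15936 in control. The highest array of day 150 lay below the lowest of day 21, and Etfdh fell by 0.66 after HP pregnancy, 0.55 after HP lactation and 0.75 in control (SE 0.11, limma adjusted p at most 0.00113).

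Hadha and Hadhb encode the alpha and beta subunits of the trifunctional protein, which carries out the last 3 steps of a round on long chains, and both fell in every diet. Hadha had signals of 2453, 2016 and 2651 after HP pregnancy, 3584, 2881 and 3181 after HP lactation and 3231, 3039 and 2926 in control at day 150. Pools of day 21 gave Hadha signals of 4148, 4823 and 4569.9 after HP pregnancy, 4926, 4700.1 and 4852 after HP lactation and 4747, 4853 and 4577 in control. The ages were apart in each diet, with log2 changes of -0.93 after HP pregnancy, -0.59 after HP lactation and -0.63 in control (SE 0.11, limma adjusted p at most 0.00104). Hadhb was at -0.50 after HP pregnancy, -0.44 after HP lactation and -0.56 in control (SE 0.12, limma adjusted p at most 0.011), a call lost after HP lactation without day 21 replicate 2.

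The subunit genes lie head to head on chromosome 5, with 272 bases between their starts, so that their upstream windows in RefSeq (build GRCm38.p6, 250 bases before each start) share 228 bases. The Hadhb window is shown because it covers most of the stretch between the genes. It reads from chr5:30155003-30155252 on the plus strand, and its far end lies toward Hadha.
Hadhb: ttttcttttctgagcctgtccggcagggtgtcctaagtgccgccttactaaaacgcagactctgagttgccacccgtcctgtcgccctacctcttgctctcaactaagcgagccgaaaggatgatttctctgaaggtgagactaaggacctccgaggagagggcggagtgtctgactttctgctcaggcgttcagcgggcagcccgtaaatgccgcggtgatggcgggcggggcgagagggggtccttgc

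Eci1, an enoyl-CoA isomerase for unsaturated chains, fell in each diet (-0.75 after HP pregnancy, -0.59 after HP lactation and -0.74 in control, SE 0.15). Decr1, the dienoyl-CoA reductase of the same branch, fell after HP pregnancy (-0.35, SE 0.12, adjusted p = 0.0371), a call lost without any 1 of 5 of the 6 arrays, and was at -0.27 after HP lactation and -0.31 in control. Hadh, the dehydrogenase for short and medium chains, was at 0.10 after HP pregnancy, 0.17 after HP lactation and -0.08 in control, and Acaa2, the mitochondrial thiolase, at -0.33 after HP pregnancy, -0.16 after HP lactation and -0.18 in control, with neither past the threshold. A further Acaa2 set was at -1.43 after HP pregnancy, -1.17 after HP lactation and -0.95 in control, and another at -0.57 after HP pregnancy, -0.29 after HP lactation and -0.43 in control. The other kept Hadh sets were all negative. The dimmer was at -0.29 after HP pregnancy, -1.02 after HP lactation and -2.19 in control. The brighter was at -0.29 after HP pregnancy, -0.21 after HP lactation and -0.32 in control. When every kept probe set was tested, Acaa2 and Slc25a20 also passed in all 3 diets, Hadh after HP pregnancy and in control, and the peroxisomal gene Pex11a, on a set that was higher at day 150, after HP lactation.

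Genes for the use of the products and for fuel choice include Bdh1 and Pdk4. Bdh1, which makes the ketone body 3-hydroxybutyrate, had signals of 7831, 8668 and 9252 after HP pregnancy, 14284, 10143 and 10531 after HP lactation and 10397, 10762 and 12117 in control at day 150. Bdh1 at day 21 had 15349.8, 16165 and 16464 after HP pregnancy, 16245, 15829.5 and 15282 after HP lactation and 17477, 20063 and 16174 in control. The ages did not overlap in any diet, and Bdh1 fell by 0.90 after HP pregnancy, 0.46 after HP lactation and 0.69 in control (SE 0.12, limma adjusted p at most 0.0114), a call lost after HP lactation without day 150 replicate 5 or 6. Pdk4, the kinase that holds back glucose oxidation, fell after HP lactation (-1.23, SE 0.43, adjusted p = 0.0439), a call lost without any 1 of 5 of the 6 arrays. Its pools differed within groups, with 1610.3, 992.9 and 457.5 after HP pregnancy at day 150 and 2904, 1089.7 and 742.2 at day 21.

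**Figure D2:**
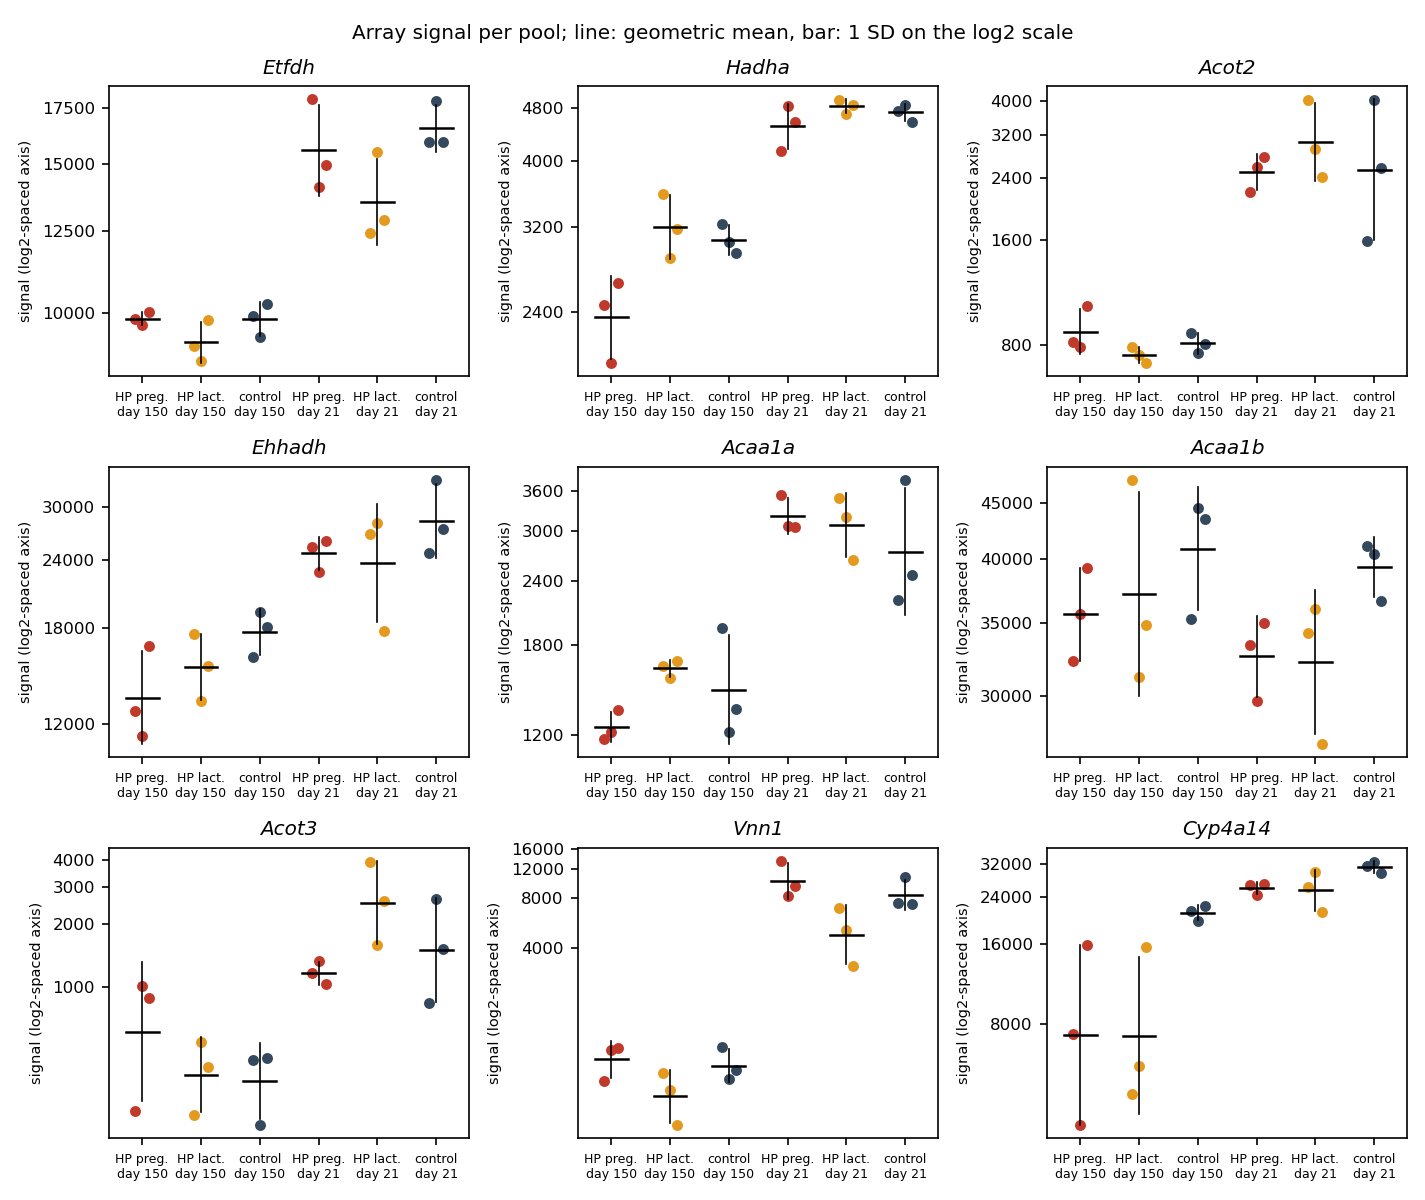
Array signal of 9 genes in every pool, on log2-spaced axes, with day 150 groups left of day 21 groups and, within a day, HP pregnancy, HP lactation and control. Lines are geometric means of 3 arrays and bars 1 SD on the log2 scale; for Etfdh, Hadha, Acot2 and Vnn1 every array of day 150 lies below every array of day 21, while for Acaa1b the ages overlap.

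The acyl-CoA thioesterases, which split acyl-CoA into free acid and coenzyme A, had some of the larger changes. Their genes, Acot2 (mitochondrial), Acot1 (cytosolic), Acot4 and Acot3 (both peroxisomal), stand in that order on chromosome 12 within 72.5 kb. They are close paralogs, so a probe set may also bind a neighbour's transcript, and their values may not be independent. Acot2 had signals of 816.0, 787.3 and 1035 after HP pregnancy, 785.9, 748.4 and 708.9 after HP lactation and 866.0, 756.1 and 802.1 in control at day 150. At day 21 it had 2196, 2589 and 2759 after HP pregnancy, 4017, 2916 and 2423 after HP lactation and 1583, 4011 and 2572 in control. Each array of day 150 was below each of day 21, a fall of 2.87-fold after HP pregnancy, 4.08-fold after HP lactation and 3.14-fold in control (log2 changes between -2.03 and -1.52, SE 0.24, limma adjusted p at most 0.000193). Its second probe set was at -2.76 after HP pregnancy, -2.28 after HP lactation and -2.37 in control.

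Acot4 had signals of 229.1, 324.7 and 350.8 after HP pregnancy, 306.0, 235.0 and 227.3 after HP lactation and 267.9, 238.2 and 265.1 in control at day 150. The day 21 signals of Acot4 were 511.4, 702.3 and 747.9 after HP pregnancy, 1167, 828.3 and 987.2 after HP lactation and 481.3, 1304 and 739.1 in control. All arrays of day 150 lay below all of day 21, with log2 changes of -1.12 after HP pregnancy, -1.96 after HP lactation and -1.59 in control (SE 0.27, limma adjusted p at most 0.00547). Acot1 fell by 1.25 after HP pregnancy, 1.53 after HP lactation and 1.27 in control (SE 0.35), and its HP lactation pools overlapped between the ages through day 21 replicate 3 (2576). The Acot1 call was lost without HP pregnancy day 150 replicate 1 or day 21 replicate 3, and in control without day 150 replicate 1 or day 21 replicate 2. Acot3 fell after HP lactation (-2.70, SE 0.48, adjusted p = 0.000492) and in control (-2.07, SE 0.48, adjusted p = 0.00612). After HP pregnancy Acot3 was at -0.92 (adjusted p = 0.174), with signals of 258.3, 1018 and 893.3 at day 150 and 1164, 1328 and 1034 at day 21.

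Of the enzymes of peroxisomal beta-oxidation, Ehhadh, Acaa1a and Eci2 fell in each diet. Ehhadh, the bifunctional hydratase and dehydrogenase, had signals of 12674, 11409 and 16706 after HP pregnancy, 17535, 13237 and 15307 after HP lactation and 15941, 19262 and 18102 in control at day 150. Pools of day 21 gave Ehhadh signals of 25328, 22831 and 26016 after HP pregnancy, 26758, 28039 and 17814 after HP lactation and 24715, 33639 and 27417 in control. The ages did not overlap within a diet, and Ehhadh fell in each (-0.88 after HP pregnancy, -0.64 after HP lactation and -0.68 in control, SE 0.17, limma adjusted p at most 0.011). The Ehhadh call was lost in control without day 21 replicate 2, and after HP lactation without day 150 replicate 5 or day 21 replicate 1 or 2.

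Acaa1a, a peroxisomal thiolase, had signals of 1177, 1217 and 1339.8 after HP pregnancy, 1636, 1553 and 1674 after HP lactation and 1939, 1216 and 1350.2 in control at day 150. Acaa1a at day 21 had 3535, 3077 and 3063 after HP pregnancy, 3485, 3195 and 2639 after HP lactation and 2197, 3774 and 2468 in control. The ages were apart in each diet, and Acaa1a fell by 1.37 after HP pregnancy, 0.93 after HP lactation and 0.90 in control (SE 0.18, limma adjusted p at most 0.00263). A second Acaa1a probe set had smaller changes, -0.40 after HP pregnancy, -0.29 after HP lactation and -0.47 in control. Acaa1b, the other peroxisomal thiolase gene, on the same chromosome 9, was at 0.13 (95% confidence interval -0.18 to 0.43) after HP pregnancy, 0.21 (-0.10 to 0.51) after HP lactation and 0.06 (-0.25 to 0.36) in control, and its ages overlapped in every diet. The 2 genes are near-identical paralogs, so part of a signal may come from the other, and whether their changes differ from each other was not tested.

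Eci2, the peroxisomal enoyl-CoA isomerase, fell in each diet (-0.58 after HP pregnancy, -0.58 after HP lactation and -0.60 in control, SE 0.14). Pex11a, which acts in the division and proliferation of peroxisomes, was at -0.12 after HP pregnancy, 0.11 after HP lactation and -0.16 in control and did not pass. Its second probe set was at 0.44 after HP pregnancy, 0.50 after HP lactation and 0.02 in control, and passed after HP lactation when every kept set was tested. Crat, the carnitine acetyltransferase of mitochondria and peroxisomes, had signals of 381.9, 424.9 and 467.7 after HP pregnancy, 531.4, 450.5 and 437.3 after HP lactation and 556.9, 479.5 and 511.3 in control at day 150. At day 21 it had 807.3, 996.5 and 874.1 after HP pregnancy, 2008, 995.6 and 1052 after HP lactation and 754.9, 1726 and 966.1 in control. Crat did not overlap between the ages and fell by 1.07 after HP pregnancy, 1.44 after HP lactation and 1.07 in control (SE 0.26, limma adjusted p at most 0.0077), while its 2 other kept probe sets had smaller changes, -0.07 and -0.16 in control.

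Vnn1, a pantetheinase that frees the precursor of coenzyme A and a target of PPAR alpha, had the widest range of the 33 genes. Its signals were 618.5, 960.1 and 986.9 after HP pregnancy, 691.7, 544.5 and 333.5 after HP lactation and 990.7, 633.2 and 716.8 in control at day 150. At day 21 they were 13444, 8293 and 9526 after HP pregnancy, 6981, 5135 and 3076 after HP lactation and 7446, 10742 and 7408 in control. Every array of day 150 was at least 3 times below every array of day 21, and the mean fell 12.2-fold after HP pregnancy, 9.58-fold after HP lactation and 11-fold in control (log2 changes between -3.61 and -3.26, SE 0.30, limma adjusted p at most 3.96e-07). The second Vnn1 probe set was at -4.33 after HP pregnancy, -3.70 after HP lactation and -4.00 in control.

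Cyp4a14, which hydroxylates the far end of fatty acids and is a classical marker of PPAR alpha activity, fell in the HP groups. It had signals of 7361, 3334 and 15852 after HP pregnancy, 4368, 5554 and 15654 after HP lactation and 21263, 19622 and 22294 in control at day 150. The day 21 signals of Cyp4a14 were 26663, 24511 and 26868 after HP pregnancy, 26298, 29951 and 21106 after HP lactation and 31576, 32616 and 29552 in control. The ages did not overlap in any diet. Cyp4a14 fell after HP pregnancy (-1.83, SE 0.41, adjusted p = 0.00377) and after HP lactation (-1.82, SE 0.41, adjusted p = 0.00368) and was at -0.57 in control (adjusted p = 0.376). When the 6 control arrays were fitted alone, Cyp4a14 passed in control too, with an adjusted p of 0.00342 against a highest of 0.927 over the alternatives. The differences between these changes did not pass, as given with the diet comparisons.

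The receptor and 4 further genes under its control showed smaller changes. Ppara itself had signals of 3885, 4609.9 and 5531 after HP pregnancy, 9035, 6522 and 4621 after HP lactation and 4711, 5052 and 6251 in control at day 150. Pools of day 21 gave Ppara signals of 6617, 7212 and 6935 after HP pregnancy, 7585, 6326 and 6778 after HP lactation and 7179, 6829.5 and 7127 in control. It fell after HP pregnancy (-0.58, SE 0.18, adjusted p = 0.0261), a call lost without any 1 of 4 of the 6 arrays, and was at -0.09 after HP lactation and -0.41 in control. Its 2 other kept probe sets were at -0.24 and 0.01 after HP pregnancy.

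Fabp1, the liver's fatty acid binding protein, had 38711, 44390.1 and 48087 after HP pregnancy, 70591, 40000.2 and 38161 after HP lactation and 39635, 52136 and 51582 in control at day 150, and its 3 log2 changes between the ages were 0.22 after HP pregnancy, 0.37 after HP lactation and 0.01 in control. Plin2, the coat protein of lipid droplets, was at 0.24 after HP pregnancy, 0.42 after HP lactation (adjusted p = 0.063) and 0.07 in control. Angptl4, a secreted inhibitor of lipoprotein lipase, was at -0.24 after HP pregnancy, -0.05 after HP lactation and -0.31 in control, and Creb3l3, a hepatic transcription factor of the fasting response, at 0.01 after HP pregnancy, 0.02 after HP lactation and -0.22 in control. None of the 4 passed, and only Plin2 after HP pregnancy had all 3 arrays of day 150 above all 3 of day 21. Plin2, like Pex11a on its second probe set, was an exception to the absence of rises in some alternatives. Plin2 passed as a rise after HP lactation with arrays scaled to equal 75th percentiles. It also did so without HP lactation day 150 replicate 6 or day 21 replicate 1.

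PPAR alpha and RXR bind a direct repeat spaced by 1 base, searched for here as AGGTCA, any base (N) and AGGTCA again, on both strands of the 250 bases upstream of a transcript start. Of the 35 genes 28 had a window in RefSeq (GRCm38.p6), and in 7 of these the start used lies inside the gene as annotated, downstream of its outermost start. With at most 2 mismatches in the 12 letters scored, 4 of the 28 windows (14.29%) held a match, as did 2.73% of the 8965 windows of genes tested on the arrays. With at most 3 mismatches the shares were 25.0% and 18.22%, and an exact match was in 0 of 28 and 3 of 8965. AGGTCA alone, a part of the longer motif, was in 25.0% and 11.04%. With the outermost start of each gene in RefSeq's windows, an alternative added after seeing the data, at most 2 mismatches were in 3 of 28 windows (10.71%) and 2.69% of all, and Creb3l3 was no longer among them. Fabp1, Plin2 and Acot4 have only 1 window each, so this alternative could not change their matches. The windows of Plin2 and Acot4 still start inside the gene. The 4 windows with at most 2 mismatches are shown because they hold the closest matches, with the match in capitals.
Fabp1, chr6:71199629-71199878, plus strand: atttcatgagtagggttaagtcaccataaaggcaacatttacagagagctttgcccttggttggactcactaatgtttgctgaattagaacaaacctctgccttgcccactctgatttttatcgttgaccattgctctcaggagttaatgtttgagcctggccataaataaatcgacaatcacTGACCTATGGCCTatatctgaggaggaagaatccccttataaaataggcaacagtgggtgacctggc
Plin2, chr4:86670060-86670309, minus strand: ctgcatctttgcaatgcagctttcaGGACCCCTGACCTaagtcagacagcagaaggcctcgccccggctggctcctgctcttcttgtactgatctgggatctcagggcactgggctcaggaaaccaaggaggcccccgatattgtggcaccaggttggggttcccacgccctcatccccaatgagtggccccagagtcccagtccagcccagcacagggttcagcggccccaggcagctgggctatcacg
Creb3l3, chr10:81092592-81092841, minus strand: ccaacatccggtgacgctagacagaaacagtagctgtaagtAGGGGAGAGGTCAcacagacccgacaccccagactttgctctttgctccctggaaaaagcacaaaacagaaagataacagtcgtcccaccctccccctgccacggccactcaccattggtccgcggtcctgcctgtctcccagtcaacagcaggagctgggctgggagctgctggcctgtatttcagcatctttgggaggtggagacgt
Acot4, chr12:84038129-84038378, plus strand: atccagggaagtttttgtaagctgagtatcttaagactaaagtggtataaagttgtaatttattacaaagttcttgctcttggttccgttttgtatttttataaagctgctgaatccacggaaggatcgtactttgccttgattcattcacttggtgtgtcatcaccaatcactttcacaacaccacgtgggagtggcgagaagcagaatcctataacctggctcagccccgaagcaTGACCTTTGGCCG
Fabp1 had 1 mismatch, with the match 67 to 55 bases before the gene's start. The other starts lie inside the gene, by 158 bases in Plin2, 1125 in Acot4 and 6281 in Creb3l3. Before these starts the match of Plin2 lay 225 to 213 bases, that of Creb3l3 209 to 197 and that of Acot4 13 to 1. Of these 4 genes, Acot4 fell at day 150 in every diet, and Fabp1, Plin2 and Creb3l3 passed in none. A match is a run of letters and says nothing of binding.

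Genes of both routes fell. Of the 7 peroxisomal genes 4 fell after HP pregnancy, 5 after HP lactation and 5 in control, with median log2 changes of -0.88 after HP pregnancy, -0.64 after HP lactation and -0.68 in control. Of the 17 mitochondrial genes 11 fell after HP pregnancy (median -0.50), 9 after HP lactation (median -0.44) and 9 in control (median -0.56). In all 3 diets 4 peroxisomal genes (57.1%) and 8 mitochondrial genes (47.1%) fell. The peroxisomal median thus lay below the mitochondrial one by 0.38 after HP pregnancy, 0.20 after HP lactation and 0.12 in control, differences between lists of 7 and 17 chosen genes that were not tested. With the Gapdh ratio as a covariate the order turned after HP pregnancy, as given below. Per array, the median deviation of the peroxisomal genes from their means over all arrays lay between -0.64 and -0.15 at day 150 and between 0.06 and 0.76 at day 21. That of the mitochondrial genes lay between -0.36 and -0.14 at day 150 and between -0.04 and 0.50 at day 21, and that of all genes tested between -0.03 and 0.04. No array of day 150 reached the day 21 range in either list. The highest array in both was control day 21 replicate 2, an array with Xist signal, and the lowest mitochondrial one of day 21 was HP lactation replicate 3.

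**Figure D3:**
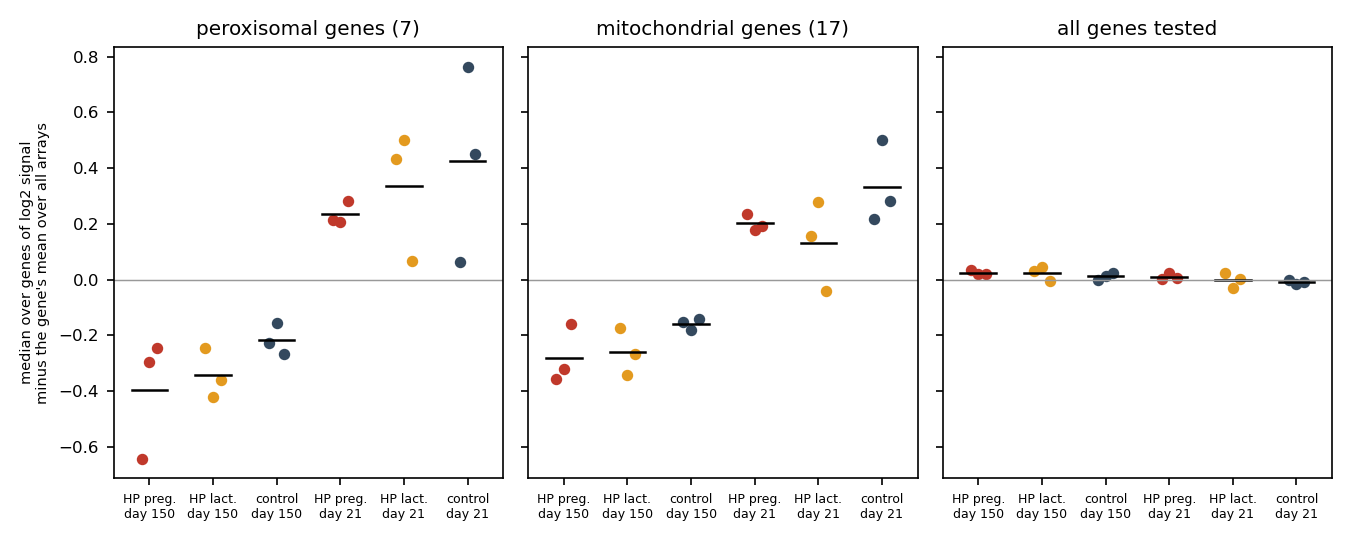
Median over genes of the log2 signal minus the gene's mean over all 18 arrays, per array, for 7 peroxisomal genes, 17 mitochondrial genes and all genes tested, with lines at the mean of 3 arrays. In both lists every array of day 150 lies below every array of day 21, and for all genes the arrays lie between -0.03 and 0.04.

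These falls between the ages were made with all 18 arrays. Without the arrays with Xist signal 21 genes fell after HP pregnancy, 17 after HP lactation and 15 in control. The Gapdh ratio did not overlap between the ages, so age and RNA completeness cannot be told apart by these groups. With the ratio as a covariate 0 of the 33 genes passed after HP pregnancy (2 of all genes), 0 after HP lactation (17 of all genes) and 1, Vnn1, in control (52 of all genes). The medians of the 33 genes were then -0.71 after HP pregnancy, -0.56 after HP lactation and -0.59 in control. Those of the peroxisomal genes were -0.61 after HP pregnancy, -0.60 after HP lactation and -0.62 in control. Those of the mitochondrial genes were -0.67 after HP pregnancy, -0.47 after HP lactation and -0.58 in control. The peroxisomal median was thus no longer the lower one after HP pregnancy. Of the 15 genes that fell in all 3 diets, 11 kept those calls in every other alternative, each array left out included. The exceptions were Bdh1, Ehhadh, Hadhb and Acot1. The alternative with every kept probe set counted a gene when any of its sets passed. It therefore did not test whether the sets of a gene agree, and for Cpt2, among the 11, the second set did not show the fall.

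Against control of the same day, no gene of the 33 passed in any of the 4 diet comparisons (limma adjusted p under 0.05; 0 of 33 each). Over all genes, 2.63% passed after HP pregnancy and 0.00908% after HP lactation at day 150, and at day 21 the shares were 0% after HP pregnancy and 0.172% after HP lactation. At an unadjusted p under 0.05 there were 8 of 33 genes after HP pregnancy and 1 after HP lactation at day 150, beside 20% and 7.72% of all genes. At day 21 there was 1 after HP pregnancy, beside 9.98% of all genes, and there were 12 after HP lactation, beside 14.3%. The median standard error of a difference of 2 groups was 0.19 over all genes, so small differences could not be resolved.

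At day 150 the HP pregnancy pools had lower signals of several mitochondrial enzymes, none past the threshold. Acadl was at -0.40 (SE 0.11, adjusted p = 0.0556), with the signals given above, and Acads at -0.44 (SE 0.12, adjusted p = 0.0572), with 3781, 3691 and 4609.5 after HP pregnancy and 5618, 6090.1 and 4702 in control. Hadha was at -0.38 (adjusted p = 0.0776), Acaa2 at -0.41 (adjusted p = 0.0978), Bdh1 at -0.37 (adjusted p = 0.104) and Cpt2 at -0.37 (adjusted p = 0.112). All 6 of these genes had every HP pregnancy pool under every control pool, which held for 10 of the 33 genes and 12.9% of all genes. The opposite held for 0 of the 33 genes and 15.1% of all. The counts of genes past the threshold depended on the processing, over all genes too, where 290 passed as reported. Of the 33 genes 7 passed with array weights (1053 of all genes), 5 without the arrays with Xist signal (591), 3 with a stricter filter (433) and 2 after quantile normalization (307). Other settings lowered the counts. With the Gapdh ratio as a covariate 0 passed (5 of all genes), without the variance trend 0 (72) and without control day 150 replicate 1 0 (9). Without HP pregnancy day 150 replicate 2, 2 of all genes passed. The Gapdh ratio ran from 1.666 to 1.803 in the HP pregnancy pools of day 150 and from 1.3 to 1.785 in control.

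Cyp4a14 had the largest difference at day 150 in both HP groups. Its signals, given above, were lower in all 3 pools of each HP group than in the control pools, with means of 7300.0 after HP pregnancy, 7242 after HP lactation and 21031 in control. The log2 change was -1.53 (SE 0.41, adjusted p = 0.0562) after HP pregnancy and -1.54 (SE 0.41, adjusted p = 0.394) after HP lactation, and neither passed. Both comparisons use the same 3 control arrays. The HP pools were also uneven, between 3334 and 15852 after HP pregnancy and between 4368 and 15654 after HP lactation, while the control pools ran from 19622 to 22294. Without HP pregnancy day 150 replicate 3, the pool with the highest signal, Cyp4a14 was the 1 gene of the 33 to pass. Over the alternatives tried its adjusted p ran from 0.0149 to 0.268 after HP pregnancy and from 0.0576 to 0.697 after HP lactation. At day 21 the changes against control were -0.26 after HP pregnancy and -0.29 after HP lactation. The difference between the ages in the diet change was -1.26 after HP pregnancy (SE 0.59, limma adjusted p = 0.999) and -1.25 after HP lactation (adjusted p = 0.929). None of the 33 genes passed in either of these tests of the difference, where 0.0182% of all genes did. At an unadjusted p under 0.05 there was 1 gene, Cyp4a14, in each test, beside 3.87% of all genes for HP pregnancy and 5.1% for HP lactation.

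After HP lactation at day 150, few other genes stood out. Acadl was at -0.23 and Cpt2 at -0.25, both with no overlap, and Pdk4 had 462.1, 570.5 and 423.6 after HP lactation, all below the control pools of 612.5, 756.8 and 924.7 (-0.65, SE 0.43, adjusted p = 0.751). Cpt1a was at 0.35 on the probe set used, and its 2 other kept sets were at 0.68 and 0.61. After HP pregnancy at day 150 those 2 sets were at 0.665 and 0.57 against control. The dimmer of the other kept Hadh sets was at 1.71 after HP pregnancy and 1.68 after HP lactation against control at day 150. Every HP lactation pool was under every control pool in 8 of 33 genes, beside 6.28% of all genes, and over it in 0, beside 7.42%.

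**Figure D4:**
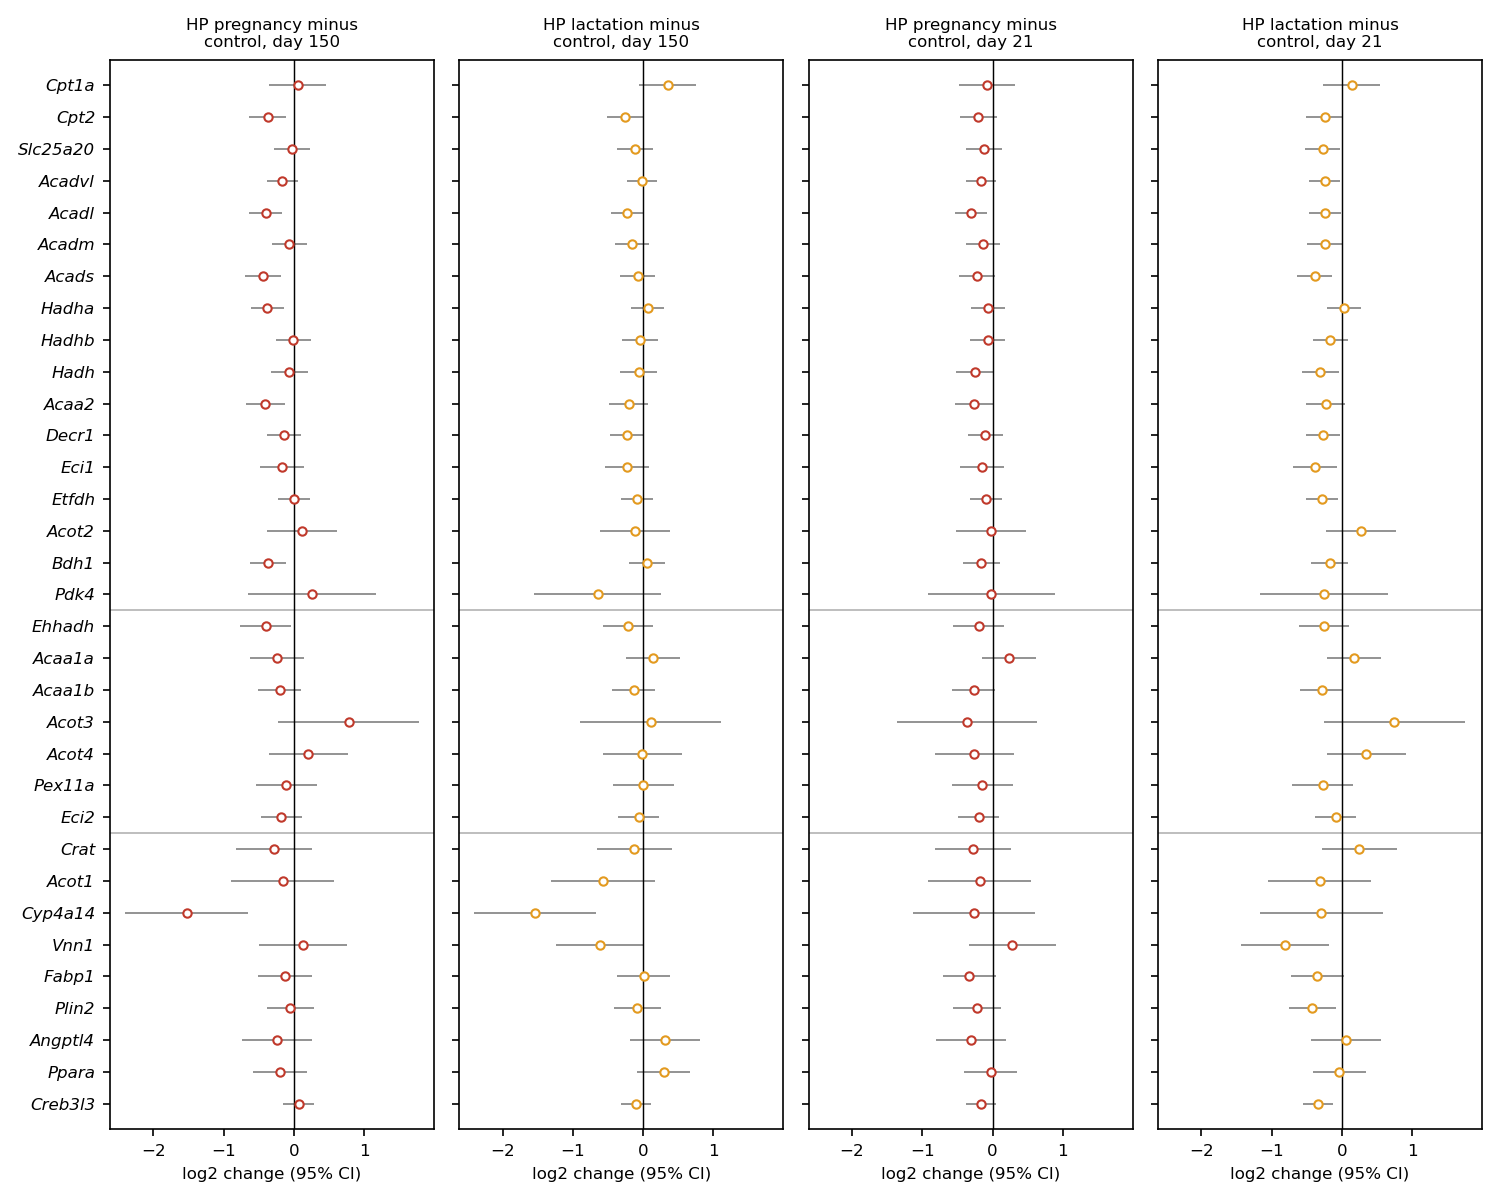
Log2 change against control of the same day for the 33 genes (points, open because 0 passed an adjusted p of 0.05) with 95% confidence intervals, after HP pregnancy and HP lactation at day 150 (left) and day 21 (right); grey lines part mitochondrial, peroxisomal and other genes. Cyp4a14 lies at -1.53 and -1.54 at day 150, and 25 of 33 points after HP pregnancy and 24 of 33 after HP lactation lie left of 0 there.

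At day 21 most changes were small and negative. After HP pregnancy 31 of 33 genes were negative (48.7% of all genes), with a median of -0.17, and after HP lactation 25 of 33 (49.4% of all genes), with a median of -0.25. At day 150 the counts were 25 of 33 after HP pregnancy (median -0.16) and 24 of 33 after HP lactation (median -0.09), beside 49.6% of all genes in each. Bright probe sets as a whole shifted in this direction: the brightest 10% of genes on the arrays, which include 21 of the 33, had medians of -0.12 after HP pregnancy and -0.21 after HP lactation at day 21. Of these 1102 genes, 822 were negative after HP pregnancy and 947 after HP lactation at day 21. At day 150 their medians were -0.09 after HP pregnancy (724 negative) and -0.07 after HP lactation (781 negative). Cell markers moved as well at day 21. After HP pregnancy 9 of 9 hepatocyte markers were negative (median -0.28), 8 of 8 endothelial markers positive (median 0.25) and 7 of 8 Kupffer cell markers positive (median 0.35), and after HP lactation 8 of 9 hepatocyte markers were negative (median -0.33). The summed hepatocyte signal ran from 222221 to 275134 after HP pregnancy and from 215952 to 269733 after HP lactation, against 284211 to 323877 in control. The summed Kupffer cell signal ran from 13248 to 17671 after HP pregnancy and from 9902 to 14135 after HP lactation (control 11757 to 13493.5). The summed endothelial signal ran from 15938 to 19744 after HP pregnancy and from 13078 to 13943 after HP lactation (control 14463 to 15690). The endothelial sum was thus above control after HP pregnancy and below it after HP lactation. After HP lactation the single endothelial markers were mixed. Means of Stab2, Clec4g and Fcgr2b were below control, and those of Lyve1, Pecam1, Kdr, Ptprb and Oit3 above it. The part of these markers in the changes of the 33 genes was not tested. After quantile normalization the day 21 medians of the 33 genes were -0.02 after HP pregnancy and -0.01 after HP lactation. Every HP pregnancy pool was under every control pool in 11 of 33 genes (7.74% of all genes), and every HP lactation pool in 9 (8.71%). The opposite held for 0 of 33 genes in each (10.5% and 7.43% of all genes).

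The genes with the smallest p at day 21 were Creb3l3 and Acads after HP lactation. Creb3l3 had 8122, 7390.2 and 6787 after HP lactation and 8778, 10477 and 8883 in control (-0.33, SE 0.10, adjusted p = 0.17). Acads had 4805, 4568 and 4425 after HP lactation and 5514, 6882 and 5736 in control (-0.39, SE 0.12, adjusted p = 0.178). Vnn1 was at -0.81 after HP lactation (adjusted p = 0.243) and 0.28 after HP pregnancy, with each HP lactation array below each control array. After HP pregnancy Acadl had the smallest p (-0.30, SE 0.11, adjusted p = 0.39).

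Set against each other, HP pregnancy and HP lactation did not differ past the threshold in any of the 33 genes, at day 150 (0.717% of all genes passed) or at day 21 (1.28%). At an unadjusted p under 0.05 there were 6 of 33 genes at day 150 and 3 at day 21, beside 17.4% and 14.9% of all genes (limma). At day 150 the HP pregnancy pools were under the HP lactation pools, with no overlap, in Hadha (-0.44, SE 0.11, adjusted p = 0.0721) and Bdh1 (-0.43, SE 0.12, adjusted p = 0.0885). At day 21 Vnn1 had a log2 difference of 1.09 (SE 0.30, adjusted p = 0.0785), with each HP pregnancy array above each HP lactation array. Acot3 was at -1.11 and Acot4 at -0.61 (adjusted p = 0.272 and 0.283), with the HP pregnancy arrays below. Without HP lactation day 150 replicate 5 Hadha and Bdh1 passed at day 150, where the count over all genes went to 251 against 79 with that array. With array weights Vnn1 passed at day 21, with 360 of all genes against 141 without weights.

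Beyond the 33 genes, 68 of 82 further genes of the same routes were tested. Of 24 other peroxisomal genes 11 fell at day 150 after HP pregnancy, 6 after HP lactation and 6 in control, and 1 rose, after HP lactation. Of 16 other mitochondrial genes 5 fell and 1 rose after HP pregnancy, 4 fell and 3 rose after HP lactation, and 5 fell and 2 rose in control. Of 28 further PPAR alpha targets and partners 6 fell and 4 rose after HP pregnancy, 11 fell and 2 rose after HP lactation, and 3 fell and 2 rose in control. Those that fell in all 3 diets were 5 of the 24 peroxisomal genes (20.8%), 4 of the 16 mitochondrial genes (25%) and 3 of the 28 targets (10.7%), beside 4.94% of all genes. Some single counts lay near the shares of all genes given above. In control 3 of 28 targets fell, beside 8.08% of all genes, and after HP pregnancy 4 of 28 rose, beside 12.1%. Others lay well above: after HP pregnancy 11 of 24 peroxisomal genes fell, beside 11.5%, and after HP lactation 11 of 28 targets, beside 11.6%.

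Among those that fell were Fgf21, a fasting hormone of the liver (-3.24 after HP pregnancy, -2.08 after HP lactation and -2.39 in control, SE 0.48), and Abcd2, a peroxisomal importer of very long acyl-CoA (-2.86 after HP pregnancy, -2.77 after HP lactation and -2.23 in control, SE 0.42). The peroxisomal thioesterase Acot8 was at -0.95 after HP pregnancy, -0.81 after HP lactation and -0.62 in control and the peroxisomal protease Lonp2 at -0.79 after HP pregnancy, -0.56 after HP lactation and -0.63 in control. Acadsb, which dehydrogenates branched short chains, rose by 0.87 after HP pregnancy, 0.90 after HP lactation and 0.88 in control (SE 0.13), and Retsat, a retinol saturase, by 0.68 after HP pregnancy, 0.95 after HP lactation and 0.76 in control.

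The Cyp4a genes near Cyp4a14 on chromosome 4, all within 280.0 kb, moved both ways. Cyp4a31 had signals of 120.7, 127.1 and 117.9 after HP pregnancy, 72.1, 118.9 and 141.7 after HP lactation and 63.0, 65.6 and 102.9 in control at day 150. Cyp4a31 at day 21 had 1108, 893.9 and 1139 after HP pregnancy, 1254, 708.6 and 1352 after HP lactation and 684.6, 700.6 and 845.7 in control. It fell 8.54-fold after HP pregnancy, 9.96-fold after HP lactation and 9.84-fold in control (limma adjusted p at most 2.88e-07). Cyp4a12a, which is known to be higher in male than in female mouse liver, had 10792, 10967 and 9436 after HP pregnancy, 11721, 9832 and 11597 after HP lactation and 11857, 11636 and 13017 in control at day 150. At day 21 it had 839.9, 1556 and 1664 after HP pregnancy, 259.3, 527.3 and 150.0 after HP lactation and 580.1, 710.4 and 814.1 in control. Cyp4a12a rose by 3.00 after HP pregnancy, 5.33 after HP lactation and 4.13 in control on the log2 scale (SE 0.31, limma adjusted p at most 2.62e-06), and at day 21 it was higher after HP pregnancy than after HP lactation by 2.24 (SE 0.31, adjusted p = 0.000958). Of the 68 genes, the remaining calls in diet comparisons were also at day 21: Acsl4, an acyl-CoA synthetase, rose after HP lactation (0.86, SE 0.14, adjusted p = 0.0109), and between the HP groups Fabp2, a fatty acid binding protein, was higher (0.61) and the receptor Pparg lower (-1.18) after HP pregnancy.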

How the data were processed

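Liver RNA of 18 pools was hybridised to Affymetrix mouse expression arrays of 45101 probe sets. The deposited table holds intensity values on a linear scale, 1 per probe set and array, made with MAS5 in GCOS 1.4, per the submitters' processing notes. Samples were grouped by the labels' diet and day. The 64 control probe sets were left out of tests, and probe sets were named from the platform's annotation: 34958 have 1 gene, 932 several and 9211 none. Signals were taken to log2 with 0 added. Probe sets with a mean log2 signal under the median of 5.85 (signal 57.5) were dropped, which left 22519, and the brightest was kept for each gene. Differences were fitted in limma 3.58.1 (R 4.3.3) over all 18 arrays and 6 groups, with a trended variance prior, 11 comparisons and Benjamini-Hochberg adjustment over 11018 genes in each. The fit was tested on simulated data, with log2 changes added for control at day 150 against day 21. It found 17.3% of changes of 0.5, 62.8% of 1.0, 84.3% of 1.5 and 96.3% of 2.0. No test was run on lists of genes. Within groups, arrays correlated between 0.967 and 0.987 over all genes, and no 2 arrays held identical values. The number of arrays limits the precision. Any of the 35 genes could be named, and of the 82 further genes those past the threshold or with the smallest p-values in their list. The genes and lists were chosen with earlier results of these data known. Alternatives varied the filter, the scaling, the number added, the probe set, the variance model, array weights and the arrays used. Figures were drawn with matplotlib 3.10.9 in Python 3.11.15.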

Additional observations from a re-analysis of the deposited data

How the results depend on the processing

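The counts of genes that fell at day 150 against day 21 were between 16 and 20 after HP pregnancy, 15 and 17 after HP lactation and 15 and 18 in control when 1 array was left out, and no named gene past the threshold turned its direction on the probe set reported. On its second kept probe set Cpt2 was positive after HP pregnancy (0.15) and in control (0.27). With the Gapdh ratio as a covariate the counts were 0 after HP pregnancy, 0 after HP lactation and 1 in control. Between HP pregnancy and control at day 150, where 0 genes passed, there were 7 with array weights, 5 without the arrays with Xist signal, 3 with the filter at the 70th percentile, 2 after quantile normalization, 2 with the compared arrays alone, 1 with every kept probe set, 1 with the replicate block, and between 0 and 1 with 1 array left out. With the Gapdh ratio as a covariate or without the variance trend there were 0 for HP pregnancy against control at day 150. Between HP pregnancy and HP lactation there was 1 gene at day 21 with array weights (Vnn1) and 1 at day 150 after quantile normalization (Bdh1), and between 0 and 2 at day 150 with 1 array left out. The cause of these moves was not tested. Same-numbered arrays of different groups did not deviate together over all genes (median correlation -0.03, 1 of 30 over 0.1). A weaker link, or one limited to some genes, was not tested. With the replicate number as a block, over the 15 arrays numbered 1 to 3, 19 genes fell after HP pregnancy and 18 in control, against 21 and 18 over the same arrays without it. Without the block those 15 arrays gave 3 genes for HP pregnancy against control at day 150, an alternative chosen after seeing the data. Over all genes 375 passed in that comparison without the block and 174 with it. HP lactation at day 150 carries other replicate numbers and had no such fit.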
